A study of Rattus norvegicus with 12 samples.

Results

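The genes examined were the 6 metabotropic glutamate receptor genes Grm2, Grm3, Grm4, Grm5, Grm7 and Grm8, followed in cultured rat cerebellar granule neurons. Members were every probe set of the deposited value table whose only gene symbol in the platform annotation was 1 of these 6 symbols, which gave 9 probe sets for 6 of the 14217 genes named by the array. Grm8 had 3 probe sets, Grm5 had 2 and the other members had 1 each. The symbol rule used no measured value, but the receptor family was chosen with earlier results of these data known. Granule neurons are the small excitatory neurons of the cerebellar cortex, and they survive in culture when potassium is kept high. Total RNA was hybridised to 12 Affymetrix rat arrays, 3 in each of 4 groups. The groups were cultures in low potassium (LK) for 3 h, cultures treated with GW5074 for 3 h, and the same treatments at 6 h, with arrays lettered A, B and C within each group. Lowering potassium is a standard way to set off granule neuron death, and GW5074 is a small-molecule inhibitor of Raf kinase that is known to protect these neurons. Whether potassium was low in the GW5074 cultures too is not stated in the labels, and nothing in them ties a letter to a culture of its own. The p-values therefore measure the spread between these samples, which may be technical. The labels give no dose, strain or age, no array was labelled as untreated or in high potassium, and the title of array A of GW5074 at 6 h ends in a different code from the other 11.

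Metabotropic glutamate receptors are G protein-coupled receptors that sense glutamate and act more slowly than the glutamate-gated channels. Group I receptors (Grm5 among these members) couple through Gq to phospholipase C and calcium release. Group II (Grm2, Grm3) and group III (Grm4, Grm7, Grm8) couple through Gi/o, which lowers adenylyl cyclase activity and restrains calcium channels and transmitter release. In the cerebellum Grm4 is the receptor best known from granule neurons themselves, where it lies on the parallel fibre terminals. Grm2 is known from Golgi cells and unipolar brush cells, and Grm3 from Golgi cells and glia.

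Values are the authors' linear intensities, scaled so that every array had the same mean, 150, after the lowest and highest 2% of probe sets were set aside. Tests used limma on log2 of the quantile-normalised intensity plus 16, over the 18625 probe sets above the 40th percentile of mean intensity (an intensity of 28), and a call is a Benjamini-Hochberg adjusted p under 0.05. Log2 changes are on that scale and understate the change of dim genes. Time was the main axis of the data: a principal component with 54.7% of the variance separated the 3 h from the 6 h arrays. Set so that the 3 h mean is 0 and the 6 h mean is 1, the 6 h arrays of letter B lay at 0.691 (LK) and 0.628 (GW5074), and the other 6 h arrays lay between 1.1 and 1.23. Arrays of the same letter and time deviated from their groups together, so the GW5074 comparisons were also fitted with the letter within each time as a block, called the paired fit. The number of arrays, 3 a group, limits the precision. In RNA from whole cultures, fewer cells of a type and less RNA per cell cannot be told apart.

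Of the 9 member probe sets, 5 passed the filter on dim probe sets, covering Grm2, Grm3, Grm4 and Grm8. Both Grm5 probe sets, the Grm7 probe set and 1 of the 3 for Grm8 lay below it. With GW5074 against LK, 0 of the 5 were called at 3 h, and 1, Grm4, was called at 6 h in the paired fit, which called 1.87% of all probe sets. Without the block Grm4 was not called at 6 h (limma adjusted p 0.939), nor was any of the 18625 probe sets. Between 3 h and 6 h, Grm4 rose in both treatments and Grm2 rose with GW5074. Over that interval 22.7% of all probe sets were called in LK and 25.0% with GW5074. Grm3 and Grm8 gave no call in any of the 5 comparisons.

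**Figure D1:**
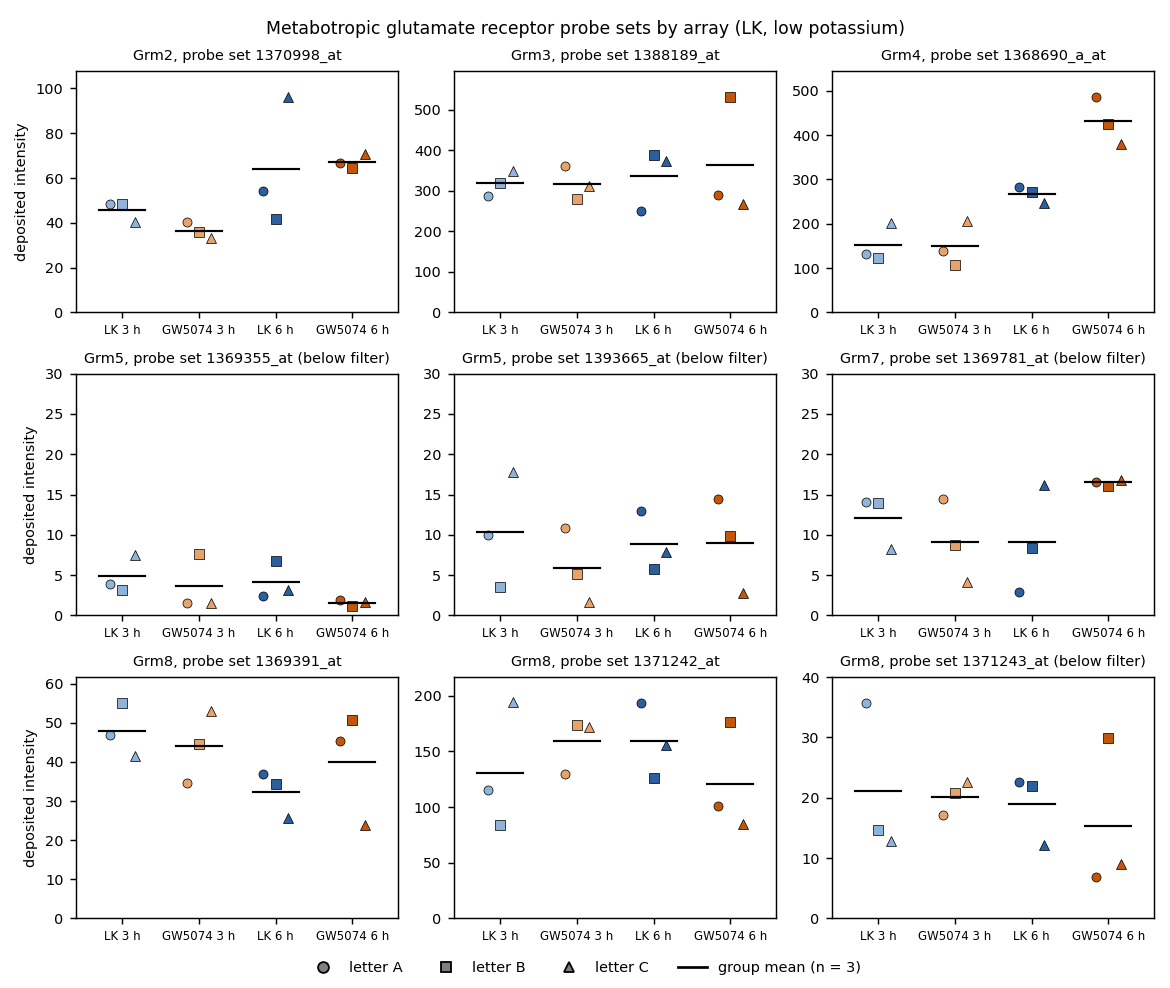
Deposited intensity (linear, starting at 0) of all 9 member probe sets on each of the 12 arrays, by group; circles, squares and triangles are letters A, B and C, and lines are group means (n = 3). The Grm4 arrays of GW5074 at 6 h, 379.9 to 487.0, lie above all other Grm4 arrays, while both Grm5 probe sets stay at or below 17.8.

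Grm4 encodes the group III receptor of parallel fibre terminals. Its probe set, 1368690_a_at, read 131.8, 122.3 and 202.6 on arrays A, B and C of LK at 3 h and 138.6, 107.7 and 206.3 with GW5074 at 3 h. At 6 h it read 283.5, 271.8 and 246.4 in LK and 487.0, 425.4 and 379.9 with GW5074. The 3 h groups overlapped throughout, every 6 h array was above every 3 h array, and at 6 h every GW5074 array was above every LK array. Group means were 152 ± 43.9 (SD, n = 3) for LK and 151 ± 50.4 for GW5074 at 3 h, then 267 ± 19 and 431 ± 53.8 at 6 h. Letter C was the highest of the 3 at 3 h in both treatments and the lowest at 6 h in both.

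At 6 h Grm4 was 1.57-fold higher with GW5074 than in LK, a log2 difference of 0.65. The difference within the pairs was 0.74 for letter A, 0.62 for B and 0.60 for C, higher in 3 of 3 pairs. In the paired fit its SE was 0.11, its 95% interval 0.43 to 0.88 and its limma adjusted p 0.0063. Without the block the interval was 0.20 to 1.11 and the adjusted p 0.939, and limma called 0% of the 18625 probe sets, 895 of which had a raw p under 0.05. The paired fit called 1.87% of all probe sets at 6 h, 0.945% as higher with GW5074, and the 2 groups did not overlap, with GW5074 higher, for 4.65% of probe sets. A larger rise than that of Grm4 was found for 0.306% of probe sets. The paired call was lost without the letter A pair of 6 h arrays (log2 0.61, adjusted p 0.0716) and when limma's prior variance had no trend with intensity (adjusted p 0.124). Without the letter B pair, which stood apart on that component, it was 0.68 with an adjusted p of 0.0247, and without the letter C pair 0.68 with 0.0333. Over all probe sets, leaving out the letter A pair took the paired calls at 6 h from 348 to 57, and leaving out the letter C pair took them to 165.

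At 3 h Grm4 differed by −0.02 between the treatments (95% interval −0.25 to 0.20 in the paired fit), with pair differences of 0.09, −0.16 and 0 for letters A, B and C. The pairs disagreed in sign, and 0.0161% of probe sets were called at 3 h in the paired fit. The GW5074 effect on Grm4 was larger at 6 h than at 3 h by 0.68 (SE 0.15, interval 0.36 to 1 in the paired fit), and this difference did not pass the test (adjusted p 0.0717, and 1 without the block). In that comparison 0.177% of probe sets were called in the paired fit.

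**Figure D2:**
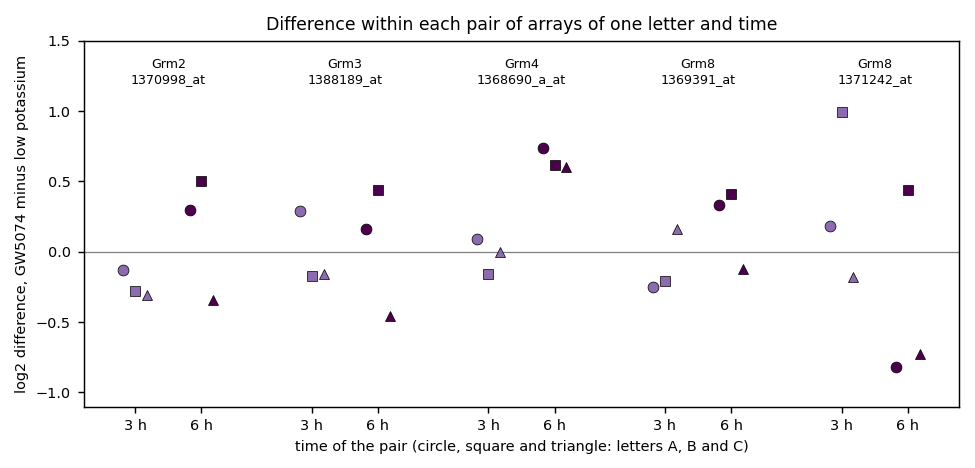
Log2 difference, GW5074 minus LK, within each pair of arrays of one letter and time, for the 5 member probe sets that passed the filter; lighter symbols are 3 h, darker ones 6 h, and circle, square and triangle are letters A, B and C. The 3 Grm4 pairs at 6 h lie together between 0.60 and 0.74, while those of Grm2, Grm3 and both Grm8 probe sets at 6 h fall on both sides of 0.

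From 3 h to 6 h Grm4 rose 1.65-fold in LK, by 0.72 on the log2 scale (SE 0.21, 95% interval 0.27 to 1.17, limma adjusted p 0.0257). It rose 2.64-fold with GW5074, by 1.40 (SE 0.21, interval 0.95 to 1.85, adjusted p 6.78e-04). Many genes moved with time: 22.7% of probe sets were called in LK (11.6% as rising) and 25.0% with GW5074 (13.1% as rising), and without overlap groups rose for 21.0% of probe sets in LK and 21.4% with GW5074 (39.3% and 40.3% in either direction). A larger rise than that of Grm4 was found for 7.38% of probe sets in LK and 0.902% with GW5074. Leaving out 1 array ended the LK call without array A (log2 0.65, adjusted p 0.0864) or B (0.60, 0.116) of the 3 h group and without A (0.68, 0.081) or C (0.78, 0.0516) of the 6 h group. The call with GW5074 held in all 17 settings tried, with log2 changes of 1.18 to 1.62. Letters did not pair arrays across times, so the time comparisons have no paired fit.

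Grm7 encodes the group III receptor of presynaptic active zones, known for its low affinity for glutamate. Its probe set, 1369781_at, was dim on every array. It read 14.1, 13.9 and 8.2 in LK and 14.5, 8.7 and 4.2 with GW5074 at 3 h, and 2.9, 8.4 and 16.2 in LK and 16.6, 16.1 and 16.8 with GW5074 at 6 h. The GW5074 arrays at 6 h lay close together, and the highest of the LK arrays, letter C at 16.2, fell among them. With no filter on dim probe sets, the 6 h difference was 0.41 (95% interval −0.08 to 0.90 in the paired fit, adjusted p 0.518). The rise from 3 h to 6 h with GW5074 was 0.44 (interval −0.07 to 0.95, adjusted p 0.269), although those groups did not overlap. Neither passed. Of the probe sets above the filter, 21.4% rose without overlap in that time comparison.

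Grm8 encodes the third of the group III receptors among these genes, a presynaptic receptor with high affinity for glutamate. The brighter of its probe sets, 1371242_at, read 115.0, 83.6 and 194.2 in LK and 129.4, 174.0 and 172.4 with GW5074 at 3 h. At 6 h it read 193.8, 126.2 and 156.2 in LK and 101.3, 176.8 and 84.4 with GW5074. All 4 groups overlapped, and letter B was the lowest array of both LK groups and the highest of both GW5074 groups. The pair differences ran from −0.18 to 0.99 at 3 h and from −0.82 to 0.44 at 6 h.

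The other Grm8 probe set that passed the filter, 1369391_at, read 46.9, 55.2 and 41.5 in LK and 34.6, 44.7 and 53.0 with GW5074 at 3 h, then 36.9, 34.4 and 25.8 in LK and 45.4, 50.8 and 23.9 with GW5074 at 6 h. In LK every 6 h array was below every 3 h array, a log2 change of −0.39 that did not pass (SE 0.21, 95% interval −0.85 to 0.06, limma adjusted p 0.196). Groups fell without overlap in that comparison for 18.3% of probe sets. The brighter probe set changed by 0.26 over the same interval (−0.33 to 0.85, adjusted p 0.534). The 2 Grm8 probe sets had opposite signs in 4 of the 5 comparisons, so no direction is given for the gene. Its remaining probe set, 1371243_at, ran from 6.95 to 35.8 and was not tested in the main fit.

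Grm2 encodes a group II receptor that acts as an autoreceptor on many glutamate terminals. Its probe set, 1370998_at, read 48.2, 48.4 and 40.2 in LK and 40.2, 35.8 and 33.3 with GW5074 at 3 h. At 6 h it read 54.4, 41.6 and 96.4 in LK and 66.6, 64.5 and 70.7 with GW5074. The LK group at 6 h was the widest, 64.1 ± 28.7 (SD, n = 3), since array C was the highest of all 12 and array B lay within the 3 h range, while the GW5074 group at 6 h was narrow at 67.2 ± 3.12.

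Between 3 h and 6 h Grm2 rose 1.62-fold with GW5074, by 0.70 on the log2 scale (SE 0.23, 95% interval 0.21 to 1.18, limma adjusted p 0.0365), and those groups did not overlap. In that comparison 25.0% of probe sets were called (13.1% as rising) and 21.4% rose without overlap. A larger rise than that of Grm2 was found for 8.18%. Without GW5074 array A (adjusted p 0.0511), B (0.0933) or C (0.0967) of 3 h, or A (0.0937) or C (0.103) of 6 h, the Grm2 rise no longer passed, with log2 changes of 0.62 to 0.79. It also missed the threshold with no filter on dim probe sets (0.0712). In LK the change was 0.31 (interval −0.18 to 0.79, adjusted p 0.349) and the groups overlapped. The difference between these 2 changes with time is the same quantity as the difference between the GW5074 effects, 0.39 (interval −0.18 to 0.96 in the paired fit, adjusted p 0.567), so a difference between treatments was not shown.

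With GW5074 at 3 h Grm2 was lower than in LK in 3 of 3 pairs, by 0.13, 0.28 and 0.31 on the log2 scale for letters A, B and C. The mean change was −0.24 (SE 0.19, 95% interval −0.64 to 0.16, adjusted p 0.909 in the paired fit and 1 without the block), which did not pass. The highest GW5074 array and the lowest LK array both read 40.2 after rounding, so the groups met without overlapping. GW5074 was lower without overlap in that comparison for 3.82% of probe sets. Without the block limma called 0% of probe sets at 3 h, 299 of which had a raw p under 0.05. At 6 h the pairs were split, 2 higher and 1 lower.

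Grm3 encodes the other group II receptor, which in the brain is found on glia as well as on neurons. Its probe set, 1388189_at, read 287.1, 320.1 and 349.6 in LK and 361.6, 280.3 and 311.1 with GW5074 at 3 h, and 250.6, 389.2 and 373.3 in LK and 289.9, 532.7 and 268.9 with GW5074 at 6 h. All 4 groups overlapped, and letter B of GW5074 at 6 h was the highest of the 12 arrays. No change was called, with log2 values of −0.01 and 0.05 for GW5074 against LK at 3 h and 6 h and of 0.01 and 0.07 over time in LK and with GW5074. The 95% interval of the 6 h difference was −0.25 to 0.35 in the paired fit, whose spread is estimated over both times. The pair differences at 6 h ran wider, at 0.16, 0.44 and −0.46 for letters A, B and C. No limit on the size of a Grm3 change is drawn from that interval.

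Grm5, the group I receptor, was at or near the bottom of the array's range. Probe set 1369355_at ran from 1.18 to 7.64 over the 12 arrays and 1393665_at from 1.72 to 17.8. With no filter, neither was called in any comparison, and nor were the dim probe sets of Grm7 and Grm8. The 6 h arrays of 1369355_at were lower with GW5074 (1.9, 1.2 and 1.7) than in LK (2.4, 6.8 and 3.2), a log2 difference of −0.19 with an adjusted p of 0.772 in the paired fit. Without overlap, 5.00% of the probe sets above the filter were lower with GW5074 at 6 h. These readings do not show that the gene is silent, only that its probe sets were dimmer than most of the array.

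**Figure D3:**
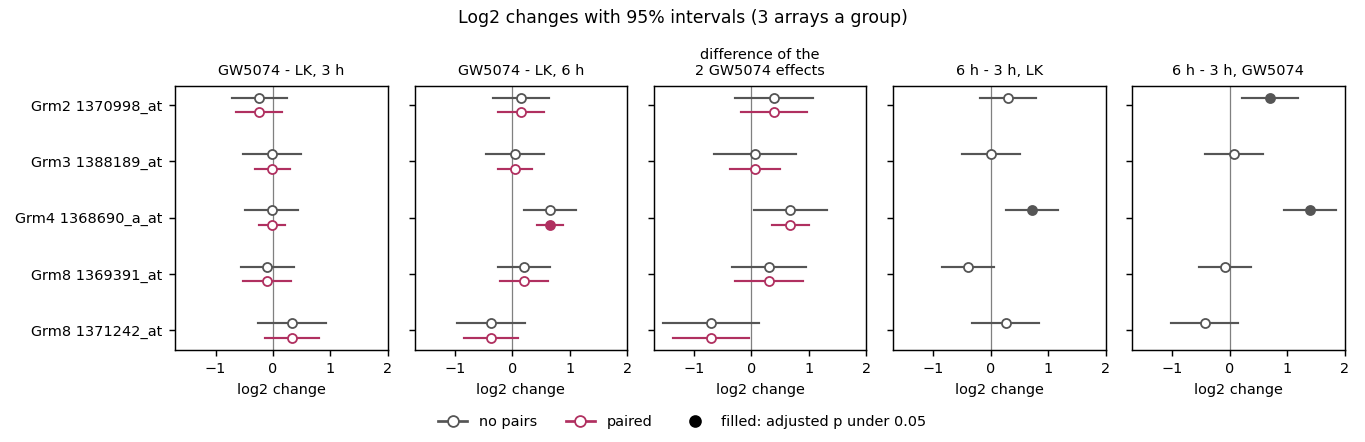
Log2 change with its 95% interval for the 5 member probe sets that passed the filter, in each of the 5 comparisons (3 arrays a group), without the block and, for GW5074 comparisons, in the paired fit; filled symbols have an adjusted p under 0.05. Filled symbols are Grm4 at 6 h in the paired fit (0.65), Grm4 over time in LK (0.72) and with GW5074 (1.40), and Grm2 over time with GW5074 (0.70).

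The genes through which these receptors act were read from 5 lists, each gene by its brightest probe set. At 3 h no gene of any list was called with GW5074 in either fit, and at 6 h none was called without the block, so the calls that follow for GW5074 at 6 h are from the paired fit, which called 1.87% of all probe sets. The median change over all probe sets was 0 in every comparison. Over time 22.7% of all probe sets were called in LK (11.6% as rising) and 25.0% with GW5074 (13.1% as rising), and the counts of list genes called over time are to be read against those shares. With no trend in the prior variance, Gnao1, Gng2, Shank3, Siah1 and Slc17a7, the 5 list genes called at 6 h, lost their calls (adjusted p 0.181 to 0.216).

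The Gi/o list, the arm used by group II and III receptors, holds the G protein subunits, adenylyl cyclases and GIRK channels, and 14 of its 19 genes were tested. At 6 h 1 was called higher and 1 lower with GW5074 than in LK (list median 0.02). Gnao1, the alpha subunit of Go and the most abundant neuronal G protein of this class, averaged 619 ± 109 (SD, n = 3) in LK and 805 ± 91.4 with GW5074. It was higher by 0.38 (adjusted p 0.0192), although the groups overlapped. Its 3 h means were 836 in LK and 814 with GW5074, so with GW5074 it had not risen from 3 h. Gng2, a gamma subunit, averaged 359 ± 38.4 in LK and 249 ± 16.2 with GW5074 and was lower by 0.54 (adjusted p 0.0225), with no overlap between groups. Leaving out the letter A or C pair ended the Gnao1 call (adjusted p 0.128 and 0.0797), and leaving out any 6 h pair ended that of Gng2 (0.162, 0.0576 and 0.0957 for A, B and C). The GIRK channel genes Kcnj3 and Kcnj6 were not called and changed sign when 1 pair was left out.

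Over time 3 of the 14 rose and 1 fell in LK, and 4 rose and 1 fell with GW5074 (medians 0.06 and 0.05). Of all probe sets, 11.6% rose in LK and 13.1% with GW5074. Whether the list differs from these shares was not tested. Gng2 rose in LK from 153 ± 14 to 359 ± 38.4 (SD, n = 3), a log2 change of 1.10 (SE 0.14, adjusted p 3.73e-04), and by 0.60 with GW5074 (adjusted p 0.00686). Kcnj6 rose by 0.85 in LK (adjusted p 0.0141). That call was lost without array A or B of 3 h or C of 6 h (adjusted p 0.0618, 0.0575 and 0.0717).

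The Gq and calcium list holds the group I arm: Gq subunits, phospholipase C, the IP3 receptor, protein kinase C and calmodulin. Of its 15 genes 9 were tested, and 0 were called at 6 h with GW5074 (list median 0.10). Itpr1, the IP3 receptor of the endoplasmic reticulum, read 1630 ± 423 in LK and 1940 ± 256 with GW5074 (SD, n = 3), and Prkca, a protein kinase C, 73.8 ± 14.1 and 89.3 ± 1.04; neither passed. Over time 3 of the 9 rose in LK and 4 with GW5074, and 0 fell (medians 0.23 and 0.27). Prkcb, another protein kinase C, rose from 381 ± 120 to 840 ± 154 in LK, by 1.13 (SE 0.23, adjusted p 0.00428). Calm2, a calmodulin gene, rose by 0.24 in LK (adjusted p 0.0167), and that call was lost without array B of 3 h (0.0772), without array A of 6 h (0.0583), with no filter (0.0657), with no trend (0.147) and without quantile normalisation (0.248).

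The list of scaffolds and partners holds proteins that bind the receptors or anchor them at the synapse, and 13 of its 15 genes were tested. At 6 h 1 was called higher and 1 lower with GW5074 than in LK (list median 0.16). Shank3, a postsynaptic scaffold linked to group I receptors through Homer, averaged 206 ± 32.9 in LK and 301 ± 25.9 with GW5074 (SD, n = 3). It was higher by 0.50 (adjusted p 0.0225), and lost its call without the letter A (0.13) or C (0.115) pair. Siah1, a ubiquitin ligase known to bind group I receptors, was lower by 0.41 with GW5074 (534 ± 40.1 in LK, 409 ± 66.2 with GW5074, adjusted p 0.0418). The Siah1 call was lost without any 1 of the 6 pairs of arrays, with adjusted p from 0.056 to 0.237, and with no filter (0.0645). Elfn2, a transsynaptic binding partner of group III receptors, was not called (445 ± 112 in LK, 556 ± 40.9 with GW5074).

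Over time 2 scaffold genes rose and 1 fell in LK, against 5 and 1 with GW5074 (medians −0.19 and 0.13). Siah1 rose by 0.71 in LK (adjusted p 0.0025). Ncdn, neurochondrin, a neuronal protein that binds group I receptors, rose by 0.70 (adjusted p 0.0117), and lost that call without array A of 3 h (0.0528) or A of 6 h (0.057).

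The desensitisation list holds receptor kinases, arrestins and RGS proteins, which end G protein signals, and 8 of its 12 genes were tested. At 6 h 0 were called with GW5074 (median 0.02); Grk2, a receptor kinase, read 120 ± 15.5 in LK and 146 ± 28.2 with GW5074 (SD, n = 3). Over time 1 fell in LK and 3 fell with GW5074, and 0 rose (medians −0.29 and −0.11). Rgs4, which speeds the turn-off of Gi/o and Gq, went from 1960 ± 234 to 998 ± 215 in LK and fell by 0.89 (SE 0.26, adjusted p 0.0227). That call was lost without array B (0.0769) or C (0.0678) of 3 h or C (0.107) of 6 h.

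The list for glutamate supply and clearance holds the vesicular and plasma membrane glutamate transporters and glutamine enzymes, and 7 of its 10 genes were tested. At 6 h 1 was called higher and 0 lower with GW5074 than in LK (median 0.02). Slc17a7, the vesicular glutamate transporter of parallel fibres, averaged 1780 ± 137 in LK and 2360 ± 114 with GW5074 (SD, n = 3). It was higher by 0.42 (SE 0.06, adjusted p 0.00429) with no overlap, and it kept its call without each pair in turn. Over time 1 gene of the list fell in LK and 2 rose with GW5074 (medians −0.08 and 0.05). Slc38a1, a glutamine transporter of neurons, fell by 0.37 in LK (1440 ± 46.4 to 1060 ± 94.6, adjusted p 0.0306), and kept that call without array B of 6 h and lost it without any other array of the 2 groups (0.0568 to 0.12) and with no trend (0.0677).

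**Figure D4:**
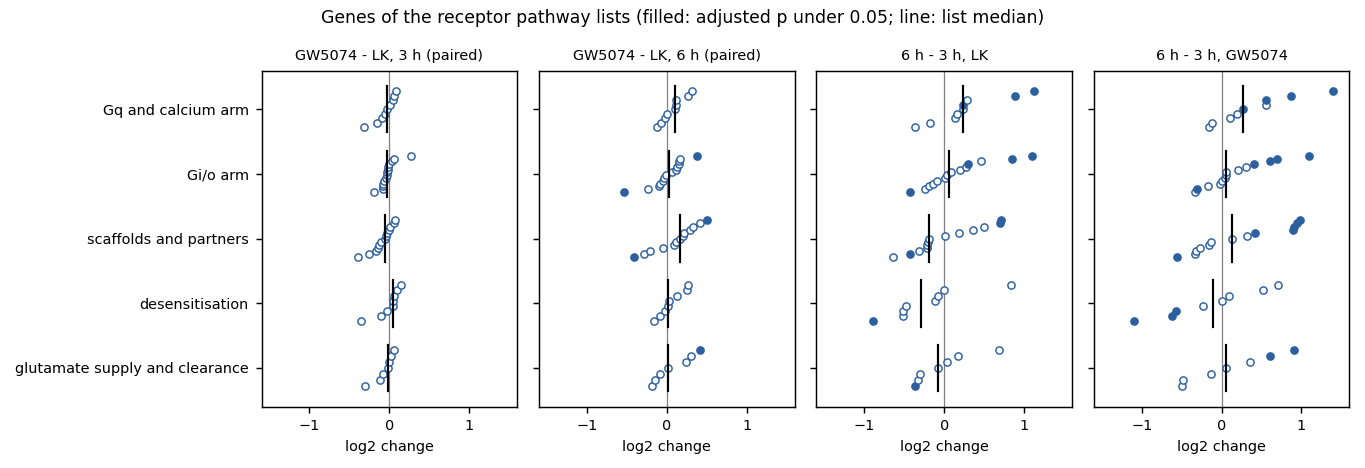
Log2 change of every tested gene of the 5 receptor pathway lists in 4 comparisons (GW5074 panels from the paired fit); filled points have an adjusted p under 0.05 and lines are list medians. No point is filled at 3 h, 5 are filled at 6 h, and the time panels hold more filled points on both sides of 0.

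Markers of the cell types the cultures could hold were read beside the receptors. All 9 granule neuron markers were above the filter, led by Neurod1 and Cbln1 with means over the 12 arrays of 2360 and 2080. Their summed intensity was 5858 to 7731 in LK and 5699 to 6967 with GW5074 at 3 h, then 11492 to 12646 and 11159 to 13835 at 6 h. Between 3 h and 6 h, 5 of 9 rose in LK and 9 of 9 with GW5074, where 11.6% and 13.1% of all probe sets were called as rising. A difference between the treatments in this rise was not shown. No granule neuron marker passed that test (lowest limma adjusted p 0.0572 in the paired fit, for Slc17a7). Gabra6, the GABA receptor subunit of maturing granule neurons, rose by 1.86 in LK (adjusted p 0.00179) and 2.05 with GW5074 (adjusted p 8.31e-04). These sums rose over the same interval as Grm4, and their part in its rise was not tested. At 6 h 1 of the 9, Slc17a7, was called with GW5074 in the paired fit. The other 8 changed by −0.05 to 0.21 and were not called. The part of granule neuron content in the 6 h difference of Grm4 was not tested.

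Unipolar brush cells, a small group of excitatory interneurons that carry Grm2, were read by Eomes and Calb2, 2 of the 3 markers listed. Their summed intensity was 179 to 249 in LK and 165 to 175 with GW5074 at 3 h, and 314 to 516 and 320 to 505 at 6 h. Calb2 made up most of it, with a mean over the 12 arrays of 232 against 68.1 for Eomes. Whether the 2 genes read brush cells alone in these cultures was not tested, so the sum is not a count of such cells. Eomes rose by 0.75 in LK and 1.08 with GW5074 (adjusted p 0.0328 and 0.0049), and Calb2 by 0.85 and 0.95 (0.033 and 0.0177). These markers moved over the same interval as Grm2, and their part in its rise was not tested. Of the markers of Golgi and other GABAergic neurons, 3 of 4 were tested and 0 were called, and their sums overlapped in all 4 groups (512 to 827). The glycine transporter gene Slc6a5 was dim throughout, at 1.02 to 14.1. No marker of any list was at 0.

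Astrocytes, the glia in which Grm3 is known, had 7 of 9 markers tested. Their summed intensity was 1970 to 2325 in LK and 1793 to 2157 with GW5074 at 3 h, and 2995 to 4742 and 3104 to 3353 at 6 h. Of the 7, Gfap alone was called, rising by 1.87 in LK and 1.92 with GW5074 (adjusted p 0.00808 and 0.00648), and Slc1a2 was below the filter (0.793 to 24.7). Gfap was also the brightest of the list, and the rise of the sums was not shared by all its genes. The list medians over time were 0.07 in LK and −0.01 with GW5074. Among the genes not called, Aqp4 changed by 0.62 and 0.53 and Slc1a3 by −0.33 and −0.50. Of 3 Purkinje cell markers, Car8 changed by −0.57 over time in both treatments, with adjusted p 0.0504 in LK and 0.0448 with GW5074. The others were not called and did not share that fall in LK. Calb1 changed by 0.44 in LK and 0.10 with GW5074, and Pcp2 by 0.16 and −0.29. Of the oligodendrocyte markers 5 of 8 were tested and of the microglial ones 4 of 7, with 0 called in any comparison. The single markers named with values were chosen after those values were seen.

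**Figure D5:**
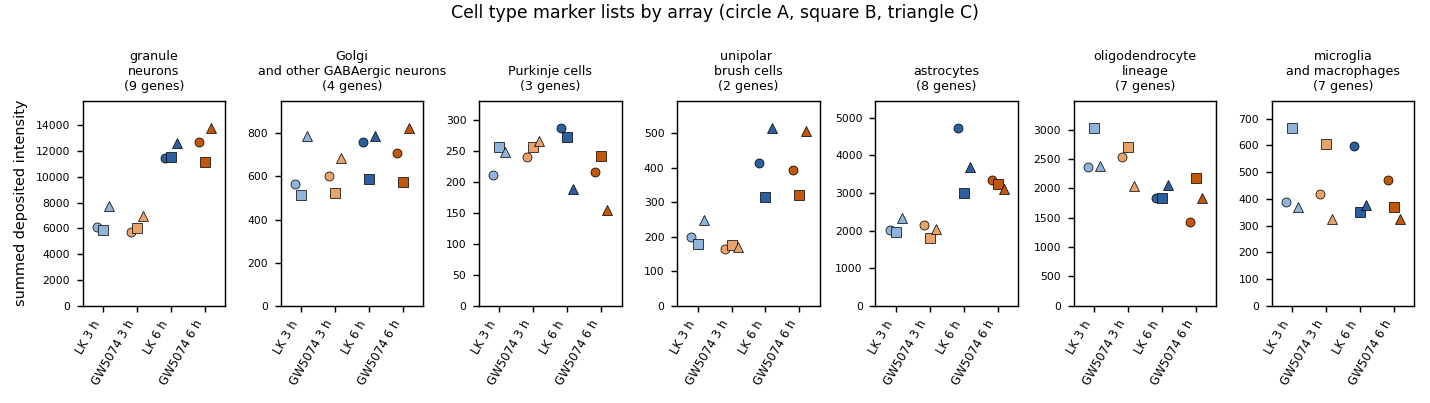
Summed deposited intensity of each cell type's markers on every array, by group; circles, squares and triangles are letters A, B and C, and the number of genes summed is in each title. Granule neuron sums are 5699 to 7731 at 3 h and 11159 to 13835 at 6 h, while sums for Golgi and other GABAergic neurons overlap in all 4 groups.

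The 3′ to 5′ ratio of the array's actin controls, a reading of RNA integrity and labelling, was higher with GW5074 in 6 of 6 pairs. The differences were 0.022, 0.018 and 0.29 on the log2 scale for letters A, B and C at 3 h and 0.116, 0.188 and 0.04 at 6 h. For Gapdh 4 of 6 pairs had the higher ratio with GW5074, and the 6 h differences ran from −0.043 to 0.0611. The poly-A spike controls, foreign RNA added before labelling, differed at 6 h by −0.54, −0.11 and −0.56 for A, B and C, with GW5074 the lower in each pair, and at 3 h by −0.15, 0.20 and 0. The actin and spike readings moved with the treatment at 6 h, as Grm4 did, and their part in the Grm4 result was not tested. The spikes also differed over time for letters B and C, at 7.31 to 7.51 on the log2 scale at 3 h. All 6 h arrays read 6.07 to 6.63, and letter A at 3 h read 6.12 in LK and 5.97 with GW5074. The part of this shift in the receptor changes over time was not tested.

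The genes whose pattern over the 12 arrays was most like that of each receptor were found among 10260 others by Pearson correlation of log2 values, given as a description, since arrays share their time and letter. For Grm4 they were Tmem201 (r = 0.973), Jph3 (0.969) and Retreg2 (0.962), with r of 0.891 to 0.938 over the 6 arrays of 3 h and 0.894 to 0.926 over those of 6 h. For Grm2 they were Astn1 (0.945), Gria4 (0.941) and Ocrl (0.933). The closest were less alike for Grm3, Cyb561 (0.844), Mzf1 (0.842) and Fstl1 (0.811), and for Grm8 by its brighter probe set, Sec61g (0.822), Ltbp2 (0.819) and Myo1g (0.806). Fstl1 followed Grm3 at 6 h (0.966) but not at 3 h (−0.0846).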

How the data were processed

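The deposited table holds 1 intensity per probe set and array for 31099 probe sets, of which 57 controls were set aside. In the values the authors deposited, every array's intensity has the same 2% trimmed mean, and no log had been taken. The summary method and software behind them are, like the scanner settings, not given in the sources used here. Of 31042 probe sets, 20826 had 1 gene symbol, 436 several and 9780 none. For 20758 of those with 1 symbol, the gene identifier was found in a reference gene list, and the symbol given there was used. How many symbols this changed was not counted.

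Arrays were quantile normalised, 16 was added and log2 taken. limma 3.58.1 in R 4.3.3 fitted 4 group means to the 18625 probe sets kept, with eBayes and a trend, two-sided, leaving 8 residual degrees of freedom, and 4 with the letter within each time as a block. The deviations of same-letter arrays from their group means correlated at 0.425, 0.21 and 0.542 for A, B and C at 3 h and 0.293, 0.65 and 0.572 at 6 h. Among the GW5074 arrays of its time, each LK array matched that of its own letter best, in 6 of 6 pairs. GW5074 arrays were not matched back to LK arrays. Correlations of same-letter arrays across times were −0.0668 to 0.182, so the letter was used to pair arrays within a time only. Plots used matplotlib 3.10.9 (Python 3.11.15).

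The scripts were tested on simulated data. The receptors, lists and comparisons were chosen with earlier results of these data known, and support nothing by their choice. From each list, up to 4 genes with the smallest p at 6 h in the paired fit and up to 2 over time in LK could be named; each list gene was read by its brightest probe set. Alternatives were no further normalisation, a pseudocount of 64, no filter, a filter at the 60th percentile, no trend, the block, and each array or pair left out. Receptor promoter and protein sequences were not used here.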

Additional observations from a re-analysis of the deposited data

Results flagged for a closer look

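Of the 5 receptor probe sets tested, none had all 3 pairs on one side of 0 at 3 h and all 3 on the other at 6 h. Of the 23 pathway genes named, 5 did, each lower with GW5074 than in LK in every pair at 3 h and higher in every pair at 6 h, as were 3.41% of the 18625 probe sets tested. Many of the 23 were named for a small p at 6 h in the paired fit, a choice that favours genes with all pairs on one side at 6 h, so the count is not read against that share. For these the change of the GW5074 effect from 3 h to 6 h on the log2 scale was 0.799 for Shank1 (−0.39 to 0.41, adjusted p 0.1), 0.644 for Shank3 (−0.14 to 0.50, 0.0804), 0.587 for Elfn2 (−0.26 to 0.33, 0.12), 0.404 for Itpr1 (−0.09 to 0.31, 0.199) and 0.262 for Prkcb (−0.15 to 0.11, 0.348). The adjusted p values are limma's for that change in the paired fit, where none passed, and without the block each was 1.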

How the results depend on the processing

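Recomputing the 40 receptor results under the alternatives gave 589 values. Of these, 548 kept their direction and their side of the threshold, 12 lost a call and 1 gained one. The other 28 changed sign, all by leaving out an array or a pair. Most of the 40 were not called in the first place, so the 548 say little about the calls. The lost calls were Grm2 over time with GW5074 (6 of 16 settings), Grm4 over time in LK (4 of 17) and Grm4 at 6 h in the paired fit (2 of 11). With the replicate block the probe sets called went from 0 to 3 at 3 h, from 0 to 348 at 6 h and from 0 to 33 for the difference of the GW5074 effects. Among receptors the block changed the call of Grm4 at 6 h (adjusted p 0.939 to 0.0063) and no other. The block with no filter gave 0, 148 and 0, and with no trend 0, 1 and 0. Leaving out a pair gave 0 to 6, 57 to 289 and 0 to 142. Leaving out an array without the block gave 0 to 3 at 6 h, 2193 to 4958 over time in LK and 2457 to 5365 with GW5074.

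Changes of sign came with 1 array or pair left out. For Grm3 the ranges were −0.0989 to 0.0604 at 3 h and −0.269 to 0.22 at 6 h (pairs: −0.161 to 0.0637 and −0.15 to 0.297), −0.109 to 0.207 over time in LK, −0.246 to 0.244 with GW5074, and −0.256 to 0.233 (pairs: −0.137 to 0.31) for the difference. They were −0.239 to 0.177 (pairs: −0.0812 to 0.0462) for Grm4 at 3 h and −0.0555 to 0.438 (pairs: −0.0191 to 0.396) for Grm2 at 6 h. They were −0.0012 to 0.554 for Grm8 1371242_at over time in LK and −0.217 to 0.137 for 1369391_at with GW5074. At 6 h in pairs they were −0.444 to 0.0933 for Kcnj3, −0.0681 to 0.296 for Kcnj6 and −0.429 to 0.0459 for Rgs4. The Grm4 call over time with GW5074 held under every alternative run. Grm2 and Grm8 1369391_at lay below the 60th percentile filter and have no value there. With 3 arrays a group, changes the size of those of Grm3 and Grm8 could not be told from 0.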

Other observations

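With GW5074 more genes of the receptor lists moved over time than the text names by its rule, and the following were chosen after their values were seen. Adcy6, an adenylyl cyclase restrained by Gi, rose by 0.69 (limma adjusted p 0.0144) and Gnb2, a G protein beta subunit, fell by 0.31 (0.0307). The scaffold genes Shank1 and Shank2 rose by 0.98 and 0.89 (0.00545 and 0.00618), and Elfn2 by 0.95 (0.00158), while Homer3, which links group I receptors to Shank proteins, fell by 0.56 (0.0484). Rgs2, which acts on Gq, fell by 0.62 (0.0381), Arrb1, a beta-arrestin, by 0.57 (0.0309) and Rgs4 by 1.10 (0.00761). In LK the same call was reached by Gng3 (0.30, adjusted p 0.0193), Plcb1 (0.89, 0.0237) and Pick1 (−0.43, 0.0294), and Gnao1 fell there by 0.43 (0.0353). The list genes that passed in 1 treatment and not in the other were not shown to differ between treatments, since no list gene passed the test of that difference.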
